A study of Mus musculus with 10 samples.

Results

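The genes described here carry glucose into the cell, split it to pyruvate and lactate, or store it as glycogen. They were 32 genes picked by symbol from the 54347 gene records of a count table from mouse iBAT (interscapular brown adipose tissue), a depot of thermogenic fat. The 32 symbols matched 33 records, because Aldoa was listed under 2 gene IDs. Of these records, 31 had enough counts to be tested among 13732 genes in all. Aldoc reached at most 0.460 CPM (counts scaled to a common library size, with TMM factors) and the second Aldoa record at most 14 counts, and neither was tested.

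Poly A RNA was sequenced from iBAT of 5 ΔGm15551 mice (replicates 1, 2, 4, 5 and 7) and 5 wild type mice (replicates 2, 3, 5, 6 and 7). ΔGm15551 mice carry a CRISPR/Cas9 deletion of exon 1 of the lncRNA gene Gm15551. The deletion is in the germ line and so not restricted to brown fat, and the line was backcrossed to wild type animals. Both genotypes carry the strain label C57BL/6N-{delta}Gm15551, were fed chow and were aged 12 weeks. Each mouse was kept alone at 4 °C for 24 h before its iBAT was taken, so that these libraries hold no mice at room temperature. The comparison asks whether loss of the lncRNA alters gene expression in cold-activated iBAT.

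Brown adipocytes burn fuel to make heat, and cold makes iBAT one of the tissues with the highest glucose uptake of the mouse. Glucose enters through GLUT transporters, is trapped by hexokinase and passes the committed step at phosphofructokinase before it is split to pyruvate. Pyruvate enters mitochondria or is reduced to lactate, which leaves through monocarboxylate carriers. Brown adipocytes also lay down and break up glycogen.

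Gm15551 had 0 counts in all 5 ΔGm15551 libraries. In wild type it had 1 count in replicate 2, 2 in replicate 3, 6 in replicate 5, 7 in replicate 6 and 0 in replicate 7, so this gene does not distinguish the library labelled wild type 7 from ΔGm15551. Total counts were 9680976 to 15771170 per mouse. The 14 brown adipocyte markers were counted in every mouse, with sums of 28154 to 32653 CPM in ΔGm15551 against 28609 to 30377 CPM in wild type. The 16 skeletal muscle markers summed to 30.9 to 2277 CPM in ΔGm15551 and to 39.4 to 3619 CPM in wild type. Wild type 7 (3619 CPM), ΔGm15551 4 (2277 CPM) and ΔGm15551 1 (1040 CPM) had the highest muscle sums, and in ΔGm15551 2 and 7 and wild type 3 and 6 between 4 and 6 of the 16 markers were at 0. Endothelial markers were highest in wild type 7 (2433 CPM), ΔGm15551 1 (2387 CPM) and ΔGm15551 5 (2225 CPM), with 1389 to 1938 CPM in the other mice.

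No glucose or glycogen gene passed the test for a difference between ΔGm15551 and wild type iBAT. Of the 31 tested, 0 had an adjusted p under 0.05 in edgeR's quasi-likelihood test with Benjamini-Hochberg adjustment, as did 0% of all genes. At an unadjusted p under 0.05 there were likewise 0 of 31, beside 219 of all genes (1.59%). The DESeq2 Wald test also gave 0 of 31 at either threshold, with 228 genes at an unadjusted p under 0.05 and a lowest adjusted p of 0.0615 over all genes. The ranges of the 2 groups did not separate for any of the 31, beside 0.32% of all genes. Fold changes were small in both directions, with 14 genes higher and 17 lower in ΔGm15551 and a median log2 fold change (log2FC) of -0.0023, against -0.00087 over all genes. They ran from -0.28 (Slc2a3) to 0.26 (Slc16a3).

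The precision of the 5 against 5 design bounds these differences. The 95% confidence interval lay within a 2-fold change either way for 30 of 31 genes (96.8%, against 90.2% of all genes), and the exception was Slc16a3, with an interval from -0.61 to 1.14. For Gpi1, Aldoa, Tpi1, Gapdh, Pgk1, Pgam1, Eno1, Pkm, Ldha and Ldhb, which run glycolysis below hexokinase apart from phosphofructokinase, all 10 intervals lay between -0.38 and 0.44. In bulk tissue fewer cells of a type and less RNA per cell cannot be told apart.

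Smaller sets of mice gave few further calls among the 31 genes. In mice 2, 5 and 7 of each genotype (6 in all), 1 gene had an unadjusted p under 0.05 (Pygl, against 4% of all genes) and 1 had ranges apart (Aldoa, against 9.05%). Without wild type 5, 6 and 7, 1 gene passed that p (Slc16a3, against 1.91%) and 2 had ranges apart (Slc16a3 and Pfkfb2, against 6.49%). Without ΔGm15551 1, 0 genes passed that p (against 3.03%) and 1 had ranges apart (Aldoa, against 1.16%). These genes are named after their values were seen.

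**Figure D1:**
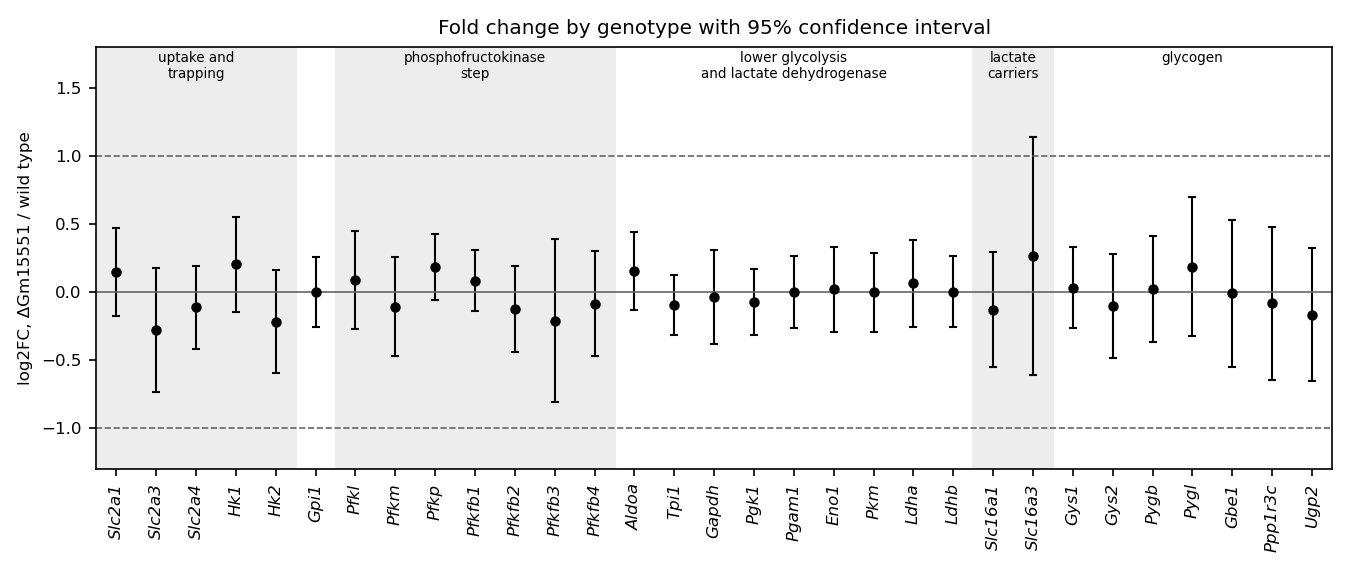
The log2FC of ΔGm15551 over wild type iBAT for the 31 tested genes in pathway order (points), with 95% confidence intervals from edgeR's fit over 5 and 5 mice (bars); dashed lines mark a 2-fold change. All 31 intervals cross 0, and only that of Slc16a3 passes a dashed line.

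Levels of different genes were compared as CPM per kilobase of exon, the length being the union of all annotated exons. Per kilobase, aldolase A (Aldoa) was the most abundant of the 31 at 1434 CPM per kb, and also over the lengths of transcripts with a consensus coding sequence (CCDS). Over the median length of all transcripts of a gene Eno1 came first instead, at 6194 CPM per kb against 4675 for Aldoa. These values leave out the counts that went to Gm7336, a pseudogene record that shares words with Gapdh (described with Gapdh). Together with it Gapdh would stand at 851 CPM per kb over the exon union, at 6225 over the median transcript length, above Eno1, and at 2763 over the CCDS length, level with Aldoa. Eno1, Gapdh, Pgam1, Ldhb, Pkm, Ldha and Pgk1 followed between 487 and 666 CPM per kb. Triose phosphate isomerase (Tpi1) stood at 248 CPM per kb, the isomerase Gpi1 at 185 and the phosphofructokinase Pfkl at 180.3. The steps around them were carried by fewer transcripts, such as Slc2a4 at 174, the lactate carrier Slc16a1 at 106 and Hk2 at 88.0 CPM per kb. Slc2a3 (0.329 CPM per kb) and Slc16a3 (0.472 CPM per kb) were the lowest of those tested.

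**Figure D2:**
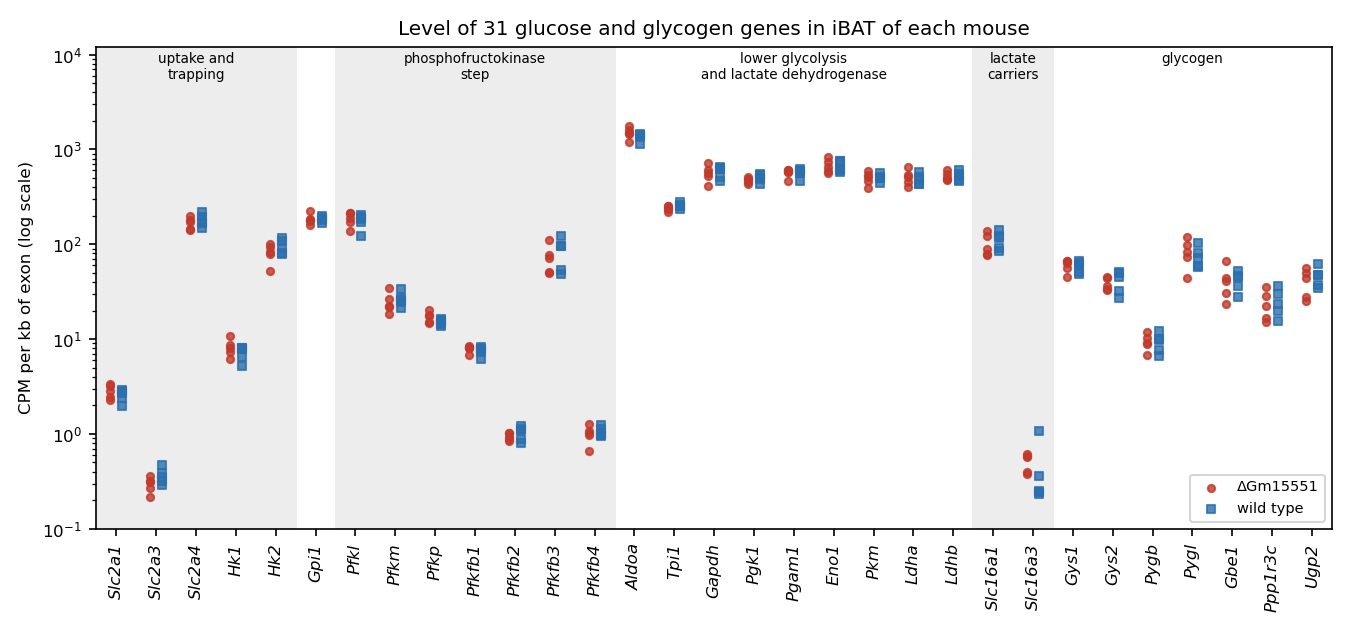
CPM per kb of exon of the 31 tested genes in each ΔGm15551 (circles) and wild type (squares) mouse, on a log scale and in pathway order. The groups overlap for every gene, and single mice run from 0.216 (Slc2a3, ΔGm15551 4) to 1771 CPM per kb (Aldoa, ΔGm15551 7).

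Of the 3 glucose transporter genes on the list, Slc2a4 was the most abundant, and it encodes the insulin-responsive transporter GLUT4 (ENSMUSG00000018566.14, GRCm38 chromosome 11, 69942539 to 69948188, minus strand). It was at 491, 499, 621, 598 and 695 CPM in ΔGm15551 mice 1, 2, 4, 5 and 7, and at 520.2, 599, 763, 681 and 581 CPM in wild type mice 2, 3, 5, 6 and 7. The groups overlapped over most of their range, with means of 581 ± 86.2 and 629 ± 94.5 CPM (SD, n = 5 each) and a log2FC of -0.11 (SE 0.14). Per kilobase Slc2a4 made up 98.2% of the transcripts of these 3 genes and exceeded the basal transporter gene Slc2a1 (GLUT1) 64.6-fold (44.6 to 91.1 over the 10 mice). Slc2a1 was at 9.92 ± 1.65 and 8.98 ± 1.32 CPM (log2FC 0.15, SE 0.15), and Slc2a3 (GLUT3) at 2.14 ± 0.409 and 2.62 ± 0.503 CPM (log2FC -0.28, SE 0.21).

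Hexokinases phosphorylate glucose and so hold it in the cell. Hk2 (ENSMUSG00000000628.10, chromosome 6, 82725025 to 82774454, minus strand), the insulin-regulated form of muscle and fat, measured 315, 467, 558, 492 and 596 CPM in ΔGm15551 against 481, 546, 642, 688 and 468 CPM in wild type, in the same mouse order. Hk1 (ENSMUSG00000037012.18, chromosome 10, 62268855 to 62379908, minus strand), the form found in most tissues, was at 52.5, 74.2, 92.0, 62.2 and 68.6 CPM in ΔGm15551 against 55.3, 66.9, 68.5, 68.3 and 44.2 CPM in wild type. ΔGm15551 1 had the lowest Hk2 level of the 10 mice, and wild type 7 the lowest Hk1 level. By itself neither gene passed the test, with a log2FC of -0.22 (SE 0.17) for Hk2 and 0.20 (SE 0.16) for Hk1. Without ΔGm15551 1 the value for Hk2 was -0.10, and without ΔGm15551 4 that for Hk1 was 0.08.

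Of the 9 ratios between paralogues that were compared, Hk2 to Hk1 had the smallest p. The log2 ratio of Hk2 to Hk1 in CPM averaged 2.79 ± 0.25 for the ΔGm15551 mice against 3.22 ± 0.15 for the wild type mice (SD, n = 5 each), a difference of -0.44. An exact permutation test over all assignments of the mice (two-sided) gave p = 0.0159, and 0.143 after Benjamini-Hochberg adjustment over the 9 ratios, so that it did not pass. Per kilobase Hk2 exceeded Hk1 8.57- to 12.4-fold in ΔGm15551 and 11.7- to 15.2-fold in wild type, and the ranges overlapped. Without the 3 libraries richest in muscle markers the difference was -0.26 (exact permutation test, p = 0.114), and without wild type 5, 6 and 7 it was -0.29 (p = 0.190). Both sets hold fewer mice and so fewer assignments, which raises the smallest p this test can give. With single mice left out the same test gave p between 0.0159 and 0.0317, and between 0.143 and 0.286 after adjustment. Wild type 5, 6 and 7 have mouse numbers of a higher series in the labels, apart from their replicate numbers. That series holds wild type mice only, so it and the genotype cannot be told apart for these mice. Hk2 made up 91.9% of the 2 transcripts per kilobase of exon over all mice, 84.7% over the CCDS lengths and 75.7% over the median transcript length. The mean fold of Hk2 over Hk1 was 11.5, 5.61 and 3.15 in the same order, so its size depends on the length used.

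Phosphofructokinase sets the pace of glycolysis, and its liver-type subunit gene Pfkl prevailed here over the muscle-type Pfkm. Pfkl was at 1240 ± 218 CPM in ΔGm15551 against 1167 ± 215 CPM in wild type (log2FC 0.09, SE 0.17). Pfkm was at 61.0, 88.2, 114, 73.5 and 74.6 CPM in ΔGm15551 against 71.4, 82.9, 86.6, 89.8 and 113 CPM in wild type, with the highest values in ΔGm15551 4 and wild type 7, the 2 libraries with the highest muscle sums. Its log2FC was -0.11 (SE 0.17). Per kilobase Pfkl exceeded Pfkm 7.06-fold on average and in 10 of 10 mice. The fold was 10.7 over the CCDS lengths and 57.8 over the median transcript length.

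Pfkp, the platelet-type subunit (ENSMUSG00000021196.14, chromosome 13, 6579768 to 6648777, minus strand), had the smallest unadjusted p of the 31 genes. It was at 204, 271, 239, 199 and 236 CPM in ΔGm15551 against 195, 211, 203, 217 and 186 CPM in wild type. ΔGm15551 2, 4 and 7 were above every wild type mouse, and ΔGm15551 1 and 5 lay within the wild type range. In edgeR's quasi-likelihood fit its log2FC was 0.18 (SE 0.11, unadjusted p = 0.131, adjusted p = 0.9998).

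The order of Pfkp and Pfkm depended on the length used. Pfkp has a long exon union of 13.4 kb, and over it Pfkp stood 0.64-fold to Pfkm, below it in all 10 mice. Over the median CCDS transcript length, 3.41 kb for Pfkp and 2.82 kb for Pfkm, it stood 2.11-fold, above Pfkm in 10 of 10 mice. Which transcripts were sequenced is not shown by a count per gene, so the order of these subunits is not settled here.

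The PFKFB enzymes make and remove fructose 2,6-bisphosphate, the allosteric activator of phosphofructokinase. Pfkfb3, whose enzyme strongly favours synthesis, made up 87.8% of the 4 PFKFB transcripts per kilobase and exceeded Pfkfb1 9.54-fold. It was at 387, 832, 541, 372 and 583 CPM in ΔGm15551 against 407, 730.4, 717, 919 and 367 CPM in wild type, low in ΔGm15551 1 and 5 and wild type 2 and 7. The lowest and the highest mouse, 2.51-fold apart, were both wild type, and ΔGm15551 spanned 372 to 832 CPM. Pfkfb1 was at 31.8 ± 2.42 and 30.1 ± 3.16 CPM (log2FC 0.08, SE 0.10), Pfkfb2 at 6.81 ± 0.595 and 7.43 ± 1.28 CPM (log2FC -0.13, SE 0.15) and Pfkfb4 at 4.88 ± 1.09 and 5.18 ± 0.595 CPM (ΔGm15551 and wild type, SD, n = 5 each).

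Below phosphofructokinase the hexose is split and the triose products are oxidised. Aldoa, which cleaves fructose 1,6-bisphosphate, was at 4399 ± 606 CPM in ΔGm15551 against 3951 ± 372 CPM in wild type (log2FC 0.15, SE 0.13). Tpi1 interconverts the triose products and was at 660.5 ± 39.9 and 705 ± 40.6 CPM (log2FC -0.09, SE 0.10). It spanned 1.27-fold over the 10 mice, with a within-group SD of 0.086 on the log2 scale, the lowest of the 31 genes.

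Gapdh, often used as a reference gene, could not be read alone. Of its distinct 31-base words, 28.1% occur in other gene records, and 26.5% occur in Gm7336, annotated as a processed pseudogene. Gm7336 was assigned 641 to 1546 CPM per mouse, against 1713 to 2961 CPM for Gapdh (ENSMUSG00000057666.18, chromosome 6, 125161715 to 125166467, minus strand). The pseudogene record took between 19.4% (wild type 7) and 40.1% (ΔGm15551 2) of the counts of both together. Gapdh by itself spanned 1.73-fold over the mice and the sum of both 1.44-fold. The sum was 3514 ± 466 CPM in ΔGm15551 against 3521 ± 422 CPM in wild type, a difference of -0.0054 on the log2 scale (exact permutation test, two-sided, p = 0.968). Gm7336 was looked at after its level had been seen.

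**Figure D3:**
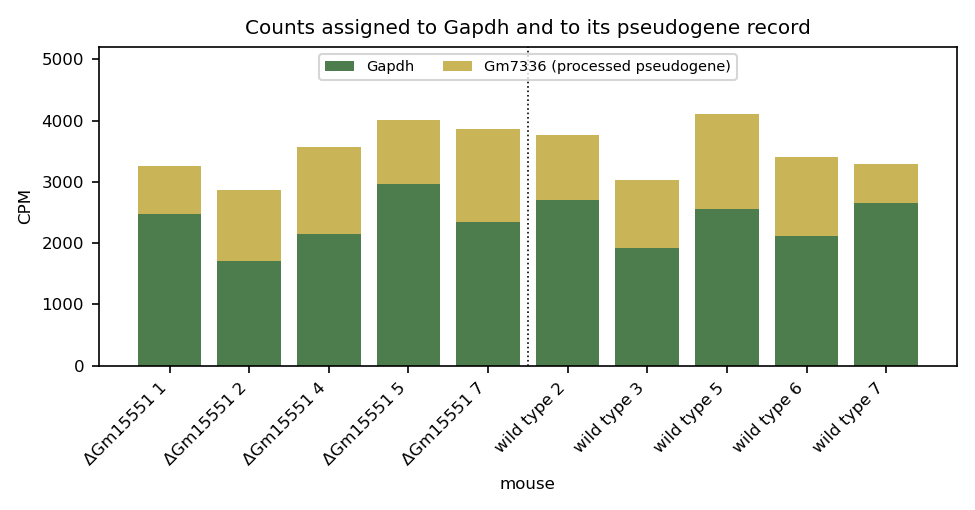
Stacked bars give the CPM assigned to Gapdh (lower) and to the processed pseudogene record Gm7336 (upper) in each of the 5 ΔGm15551 (left) and 5 wild type (right) mice. The pseudogene takes from 19.4% of the stack in wild type 7 to 40.1% in ΔGm15551 2, and the stacks of both groups overlap, at 2860.3 to 4017 CPM in ΔGm15551 and 3025 to 4107 CPM in wild type.

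Lower glycolysis runs from phosphoglycerate to pyruvate. Pkm, the pyruvate kinase gene whose M1 and M2 forms a count per gene does not separate, was at 2500.0 ± 390.5 CPM in ΔGm15551 against 2504 ± 205 CPM in wild type (log2FC -0.0023, SE 0.13). Pgk1 (1064 ± 71.9 and 1120.1 ± 101 CPM), Pgam1 (1127 ± 114 and 1126 ± 122 CPM) and Eno1 (3606 ± 591 and 3555 ± 460 CPM) are given as means of ΔGm15551 and wild type, in that order. Shared words were also many for Pgk1 (54.7%), Pgam1 (37.1%), Pkm (34.7%), Ldhb (33.0%) and Eno1 (28.5%). The records that share at least 100 words with them summed to at most 5.22 CPM, except for Pkm, where they summed to 68.6 CPM. Pfkfb2 shared 18.9% of its words with other records, and those sharing at least 100 words summed to 8.38 CPM, above its own mean of 7.12 CPM, so its level is uncertain.

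Lactate dehydrogenase joins pyruvate and lactate, with Ldha encoding the subunit of glycolytic tissues and Ldhb that of oxidative ones. Ldha was at 1691 ± 314.5 CPM in ΔGm15551 against 1619 ± 194 CPM in wild type (log2FC 0.06, SE 0.15), and Ldhb at 824 ± 85.4 and 823 ± 88.8 CPM. Per kilobase of exon union Ldha stood 0.95-fold to Ldhb, above it in 3 of 10 mice. Over the CCDS transcript lengths it stood 1.48-fold, above it in 10 of 10, so that their order also turned on the length.

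Lactate carriers differed widely in level. Slc16a1, which encodes MCT1, was at 449 ± 123 CPM in ΔGm15551 against 492 ± 105 CPM in wild type, and per kilobase it exceeded Slc16a3 247-fold on average (83.5 to 588 over the 10 mice). The fold was 111 over the CCDS lengths and 45.2 over the median transcript length. Slc16a3 (ENSMUSG00000025161.16, chromosome 11, 120948480 to 120960868, plus strand) encodes MCT4, the lactate exporter of glycolytic muscle. It was at 3.01, 2.13, 3.27, 3.14 and 2.01 CPM in ΔGm15551 mice 1, 2, 4, 5 and 7, and at 1.34, 1.28, 1.93, 1.24 and 5.75 CPM in wild type mice 2, 3, 5, 6 and 7. Every ΔGm15551 mouse was above wild type 2, 3, 5 and 6, and wild type 7 was above all other mice.

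Wild type 7 decided the Slc16a3 comparison. With all 10 mice the log2FC was 0.26 (SE 0.40). Without wild type 7 it was 0.90 (SE 0.25, unadjusted p = 0.0034, adjusted p = 0.975 by edgeR), and the groups did not overlap. In that subset 2.91% of all genes had an unadjusted p under 0.05 and 1.04% had ranges apart. Without the 3 muscle-rich libraries, ΔGm15551 1 and 4 and wild type 7, the log2FC was 0.74 (SE 0.29, unadjusted p = 0.0283, adjusted p = 0.969 by edgeR), with background shares of 4.04% and 5.25%. Slc16a3 was singled out after these values were seen, and it rests on 15 to 56 counts per mouse.

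Wild type 7 had the highest Slc16a3 level and the highest muscle marker sum, and also the highest endothelial marker sum (2433 CPM). ΔGm15551 5 had Slc16a3 at 3.14 CPM with a muscle sum of 141 CPM. ΔGm15551 4 had it at 3.27 CPM with a muscle sum of 2277 CPM. The part of muscle in the Slc16a3 level was not tested. Muscle isoforms outside the 32 genes followed the marker sum: the phosphorylase Pygm was at 109 CPM in wild type 7 and 86.5 CPM in ΔGm15551 4, next highest in ΔGm15551 1, and at 2.57 to 14.2 CPM in the other 7 mice. Eno3 and Pgam2 were also highest in wild type 7, at 92.6 and 37.9 CPM. Pfkl was lowest in wild type 7 (807 CPM) and ΔGm15551 1 (913 CPM), against 1149.6 to 1435 CPM in the others. Among those others was ΔGm15551 4, with the second highest muscle sum and Pfkl at 1268 CPM.

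**Figure D4:**
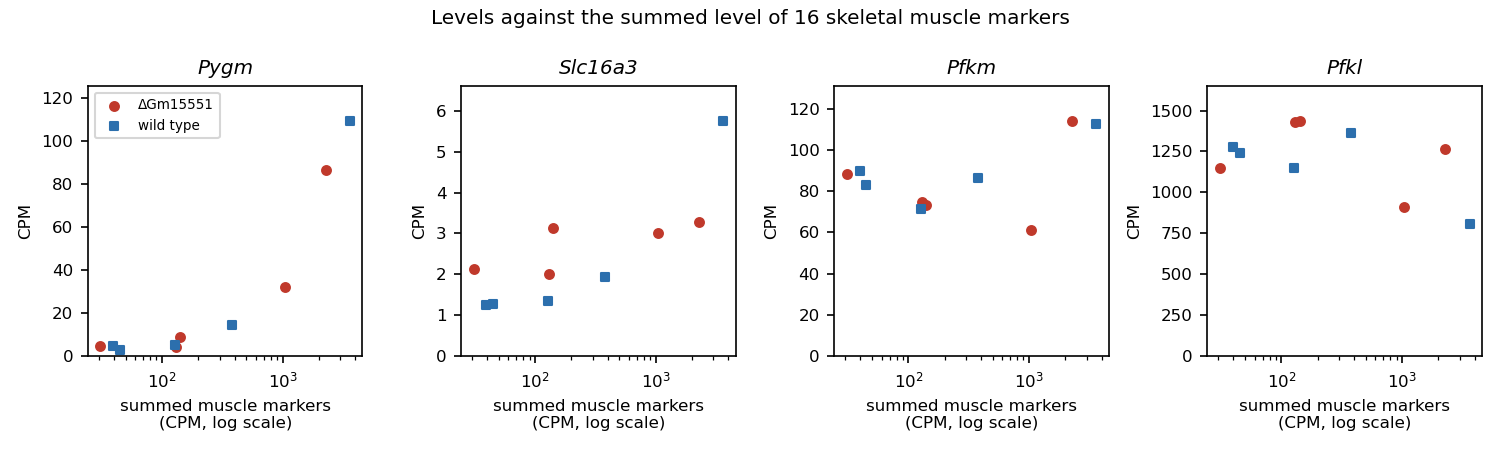
CPM of Pygm, Slc16a3, Pfkm and Pfkl in each mouse against the summed CPM of 16 skeletal muscle markers (log scale), with ΔGm15551 as circles and wild type as squares. Wild type 7, at the right end of each panel, has the highest Pygm (109 CPM) and Slc16a3 (5.75 CPM) and the lowest Pfkl (807 CPM).

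Both glycogen synthase genes were measured. Gys1, the form of muscle and most tissues, was at 284 ± 42.7 CPM in ΔGm15551 against 278 ± 36.7 CPM in wild type (log2FC 0.03, SE 0.14). Gys2, known as the liver form, was at 102 ± 15.2 and 109.5 ± 28.5 CPM (log2FC -0.11, SE 0.18). Per kilobase Gys2 made up 40.2% of synthase transcripts, 34.0% over the CCDS lengths and 19.3% over the median transcript length, and Gys1 exceeded it in 10 of 10 mice under each of the lengths tried. Of the 2 glycogen phosphorylase genes on the list, the liver form Pygl made up 89.1% per kilobase and the brain form Pygb 10.9%. These shares leave out the muscle form Pygm, which averaged 27.2 CPM over the 10 mice against 44.9 CPM for Pygb. In wild type 7 and ΔGm15551 4 Pygm was at 109 and 86.5 CPM, above Pygb at 31.6 and 42.6 CPM. The fold of Pygl over Pygb was 8.28 over the exon union, 16.4 over the CCDS lengths and 4.99 over the median transcript length.

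Pygl (ENSMUSG00000021069.17, chromosome 12, 70190811 to 70231488, minus strand) releases glucose 1-phosphate from glycogen. It was at 307, 678, 571, 512 and 821 CPM in ΔGm15551 against 403, 488, 552, 703 and 396 CPM in wild type. The 2 ends of the whole range were both ΔGm15551 mice, replicate 1 and replicate 7, and the log2FC was 0.18 (SE 0.24). Leaving out single mice moved it between 0.02 (without ΔGm15551 7) and 0.34 (without ΔGm15551 1), and it was 0.33 without wild type 6. Gbe1, the branching enzyme, had the same mice at its ends, at 124, 219.8, 237, 163 and 356 CPM in ΔGm15551 against 193, 277, 241, 249 and 149 CPM in wild type.

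Ppp1r3c, which brings protein phosphatase 1 to glycogen, was at 41.2, 96.1, 60.2, 45.1 and 78.2 CPM in ΔGm15551 against 42.1, 98.0, 63.7, 82.1 and 53.8 CPM in wild type. Its low mice were ΔGm15551 1 and 5 and wild type 2. Ugp2, which makes UDP-glucose for the synthases, was lowest in ΔGm15551 5 and 1 (77.5 and 84.9 CPM) and highest in wild type 3 and ΔGm15551 7 (189 and 171 CPM). Pygb was at 45.3 ± 9.18 and 44.5 ± 10.8 CPM.

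Spread between mice of 1 genotype set the glycogen genes apart from the glycolytic trunk as a description. The within-group SD of log2 CPM had a median of 0.43 over the 7 glycogen genes, 0.17 over the 10 enzymes from Gpi1 to Ldhb without phosphofructokinase and 0.27 over all genes tested. It exceeded that all-gene median for 6 of 7 glycogen genes and 0 of 10 of those enzymes. Among the 31 genes at 10 CPM or more, Pfkfb3 (0.53), Ppp1r3c (0.50), Gbe1 (0.48), Pygl (0.45) and Ugp2 (0.43) had the widest spread, between 2.38- and 2.87-fold from the lowest to the highest mouse.

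The mice at the ends recurred. ΔGm15551 1 was the lowest mouse for 10 of 31 genes (32.3%, against 12.3% of all genes) and wild type 7 for 7 (22.6%, against 17.1%). ΔGm15551 7 was the highest mouse for 8 (25.8%, against 6.59%) and wild type 5 for 6 (19.4%, against 5.40%). The median deviation of the 31 genes from their means over mice was -0.24 in ΔGm15551 1, -0.16 in wild type 7, -0.13 in wild type 2 and 0.13 in ΔGm15551 7 and in wild type 5 (log2). ΔGm15551 1 and wild type 7 had the highest endothelial and red blood cell marker sums and were among the 3 highest muscle sums. The 10 macrophage markers were highest in wild type 2 (120.1 CPM), ΔGm15551 1 (110.5 CPM) and wild type 7 (96.9 CPM), against 59.5 to 73.3 CPM in the other 7 mice. Ucp1, the uncoupling protein of brown adipocytes, was lowest in ΔGm15551 1 (5747 CPM) and wild type 7 (6436 CPM), against 8265 to 10990.0 CPM in the other 8. Prdm16, a brown fat transcription factor, was also lowest in wild type 7 (21.8 CPM) and ΔGm15551 1 (25.5 CPM), against 30.6 to 39.8 CPM. The sum of all 14 brown adipocyte markers did not separate both mice in this way. It was lowest for ΔGm15551 1, at 28154 CPM. Wild type 7, at 28866 CPM, lay within the range of the other 8 mice, 28609 to 32653 CPM. The part of muscle, endothelial, red blood and macrophage cells in the spread was not tested.

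**Figure D5:**
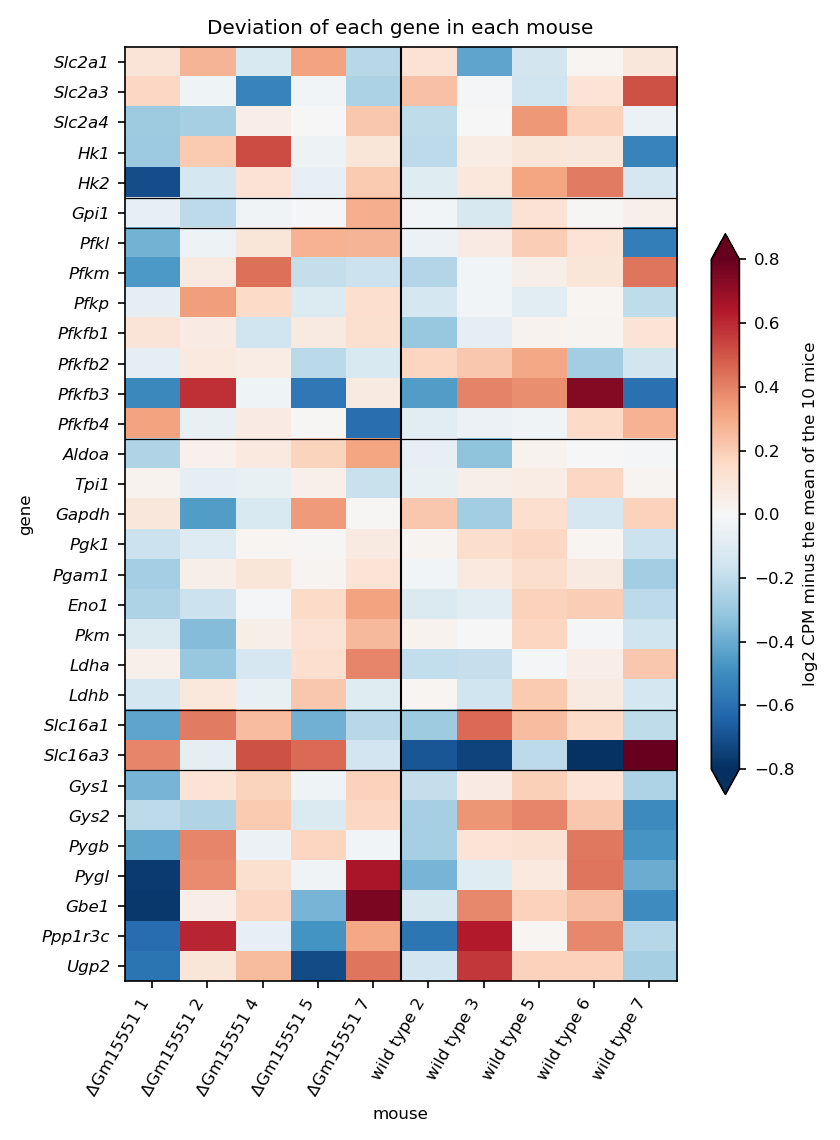
Each cell gives the log2 CPM of 1 gene in 1 mouse minus the mean of that gene over the 10 mice (colour scale from -0.8 to 0.8), with ΔGm15551 mice left and wild type mice right of the line. ΔGm15551 1 is low for Hk2, Pfkfb3 and the glycogen genes at the bottom, ΔGm15551 7 is high for Pygl and Gbe1, and the enzymes from Gpi1 to Ldhb without phosphofructokinase lie between -0.45 and 0.39.

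The promoters of the most variable glycogen genes are printed because ΔGm15551 1 was among the 2 lowest mice for each of them. Windows of 250 bases before the transcription start came from RefSeq (GRCm38.p6) for 29 of the 32 genes. The letters ACGTG, the core bound by hypoxia-inducible factors and shared with other bHLH factors, were searched on both strands. They occur in 16 of 29 genes (55.2%), among them Slc2a1, Hk2, Aldoa, Pgk1, Ldha and Slc16a3, against 18.5% of all 27025 genes with a window and 24.9% of those tested. Counted per window, the shares were 42.6% for these genes and 16.6% over all windows, and no such share was taken for the tested genes alone. The median GC content was 60.4% in the windows of these genes and 59.6% in those of all genes tested. The palindrome CACGTG, which overlaps that core on both strands, occurred in 6 of 29 genes (20.7%, against 6.86% of all genes and 9.93% of those tested). TGACG, a core of the cAMP response element, occurred in 8 of 29 (27.6%), against 19.8% of all genes and 30.3% of those tested. A match in letters is a description and not a bound site.

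These stretches lie outside annotated exons, read 5′ to 3′ toward the start, with ACGTG or its reverse CACGT in capitals. Ppp1r3c holds 3 matches, of which 2 overlap in 1 CACGTG, Pygl and Ugp2 hold 1 each, and Gbe1 holds 0.
Ppp1r3c (chr19:36736654-36736854, minus strand): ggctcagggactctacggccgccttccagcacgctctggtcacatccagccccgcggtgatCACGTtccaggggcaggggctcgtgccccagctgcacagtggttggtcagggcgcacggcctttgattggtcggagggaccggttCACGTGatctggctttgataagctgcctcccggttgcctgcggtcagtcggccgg
Pygl (chr12:70227684-70227840, minus strand): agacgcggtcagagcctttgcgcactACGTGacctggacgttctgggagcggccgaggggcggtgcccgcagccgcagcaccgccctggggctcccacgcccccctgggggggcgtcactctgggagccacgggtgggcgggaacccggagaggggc
Ugp2 (chr11:21371268-21371459, minus strand): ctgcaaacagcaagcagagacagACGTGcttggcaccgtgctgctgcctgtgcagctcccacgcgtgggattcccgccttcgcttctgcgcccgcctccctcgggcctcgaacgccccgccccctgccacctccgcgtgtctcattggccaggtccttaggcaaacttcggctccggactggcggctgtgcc
Gbe1 (chr16:70313699-70313948, plus strand): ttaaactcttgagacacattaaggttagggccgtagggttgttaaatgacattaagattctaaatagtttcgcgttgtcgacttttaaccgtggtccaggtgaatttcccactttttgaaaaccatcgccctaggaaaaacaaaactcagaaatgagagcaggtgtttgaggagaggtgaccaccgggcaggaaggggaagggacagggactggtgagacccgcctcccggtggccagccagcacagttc

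Other genes of glucose metabolism, in lists that hold none of the 32, gave the same picture. Of 11 tested further transporters and accessory genes, 9 further glycolytic enzymes, 7 genes of gluconeogenesis, 8 of the pentose phosphate pathway, 25 further glycogen genes and 9 glucose- or oxygen-responsive regulators, 0 in each list had an unadjusted p under 0.05 (1.59% of all genes). In the same order, 4, 3, 6, 5, 14 and 2 of them were higher in ΔGm15551 and 7, 6, 1, 3, 11 and 7 were lower. The smallest p of each list belonged to Emb, a chaperone of monocarboxylate carriers (1.40 ± 0.297 and 1.86 ± 0.55 CPM, log2FC -0.38, SE 0.26), to Gapdhs, the sperm form of Gapdh (log2FC 0.24, SE 0.26), to Pck1, to Taldo1, to Ppp1r3b and to Arnt. Pck1, which makes phosphoenolpyruvate for glycerol synthesis in fat, was at 2317 ± 814 CPM in ΔGm15551 against 1755 ± 646 CPM in wild type (log2FC 0.40, SE 0.29). Ppp1r3b, another glycogen-targeting subunit, was at 242 ± 126 and 345 ± 117 CPM (log2FC -0.51, SE 0.36), with its lowest values in ΔGm15551 1 (126 CPM) and 5 (129 CPM) and wild type 2 (171 CPM). Those 3 mice were also the lowest for Ppp1r3c.

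Next in these lists came Tbc1d4, which restrains GLUT4 traffic (log2FC 0.24, SE 0.16), Tigar (-0.11, SE 0.17), Pck2 (0.19, SE 0.17), G6pdx (0.17, SE 0.26), Pgm2 (-0.22, SE 0.16) and Myc (-0.29, SE 0.27). Taldo1 and Arnt had log2FC of 0.12 (SE 0.17) and -0.11 (SE 0.10). Adjusted p was 0.9998 for all 12 by edgeR's quasi-likelihood test.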

How the data were processed

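Poly A RNA of iBAT from 10 mice was measured as 1 library per mouse, and groups and mouse numbers came from the labels. According to the labels and published methods, the authors' reads were filtered with cutadapt and quantified with salmon against GENCODE M22 on GRCm38 (or M22 with RNAcentral); tool versions are not stated. The values deposited by the authors are expected counts, estimated by salmon and given as whole numbers per gene, with no scaling for depth. Whether the strand was used is not stated. Salmon divides reads that fit several transcripts, which bears on Gapdh and other genes with near-identical copies.

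The main test used edgeR 4.0.16 under R 4.3.3: filterByExpr (minimum count 10, minimum total 15), TMM and a quasi-likelihood fit with genotype as its only term over all 10 mice, with Benjamini-Hochberg adjustment over 13732 genes and a threshold of 0.05. The fit was tested on simulated data. The SE of a log2FC came from its F statistic, and log2 CPM had a prior count of 2. Depth was 9680976 to 15771170 counts per mouse, which limits genes with few counts. Ratios of paralogues were compared by exact permutation tests (scipy 1.17.1, 9 ratios, Benjamini-Hochberg). Gene positions, lengths and shared 31-base words came from GENCODE M21 on the same build, not the release the authors used. Promoter windows came from RefSeq.

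The 32 genes and the lists were chosen with earlier results of these data known. Levels are given for all, and fold changes for the 10 genes with the smallest unadjusted p, for Slc2a1, Slc2a4, Hk2, Pfkl, Pfkm, Pkm, Ldha, Gys1, Gys2 and Pygl, and for the 2 genes with the smallest p in each further list. Slc16a3 and Gm7336 fall outside this rule. Alternatives were DESeq2 size factors, no filter, the DESeq2 1.42.0 Wald test, a muscle score as covariate, omission of single mice, a block for the replicate number, the higher number series left out and another gene length. Leaving out the 3 muscle-rich libraries and the CCDS transcript length were chosen after seeing the data. No duplicate library was found (chi-square per degree of freedom of at least 12.6 within groups). The p-values of edgeR set a group difference against the spread between single mice, moderated over genes. Those of the permutation tests give the share of assignments of the mice with a difference at least as large.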

Additional observations from a re-analysis of the deposited data

Results flagged for a closer look

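In 80 groups of 5 mice (31 genes and 9 ratios, each in both genotypes), 5 held a mouse set apart from the other 4 by Dixon's test, where chance gives about 4, or 1 in 20. Slc16a3 was at 5.75 CPM in wild type 7 and at 1.24 to 1.93 CPM in wild type 2, 3, 5 and 6. In the same mouse the log2 ratio of Slc16a1 to Slc16a3 was 6.12 (8.13 to 8.94 in the others), and that of Pfkl to Pfkm was 2.84 (3.83 to 4.01). These 3 values belong to the library with the highest summed muscle markers (3619 CPM), and the part of muscle in them was not tested. Pgam1 was at 929 CPM in ΔGm15551 1, against 1139 to 1208 CPM in the other ΔGm15551 mice. Pfkfb1 was at 27.6 CPM in ΔGm15551 4, against 32.3 to 33.6 CPM.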

How the results depend on the processing

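Under all 18 alternatives 0 of all genes and 0 of the glucose and glycogen genes had an adjusted p under 0.05, and the lowest adjusted p of the 17 listed genes named by the rule was 0.835. The median log2FC of the tested members of the list stayed between -0.063 and 0.075. With DESeq2 size factors, no filter, the DESeq2 Wald test or the muscle score as covariate, 0 of the listed genes had an unadjusted p under 0.05. That count was 1 in the 6 mice with shared numbers without a block (Pygl, log2FC 0.57, unadjusted p = 0.0252, adjusted p = 0.964 by edgeR, beside 4% of all genes), 1 without the higher number series (1.91%), 1 without the 3 muscle-rich libraries (4.04%) and 0 to 1 when single mice were left out, the last 3 being Slc16a3. Genes with ranges apart numbered 1, 2, 3 and 0 to 1 in the same order (Aldoa; Slc16a3 and Pfkfb2; Slc16a3, Pfkfb1 and Aldoa; Aldoa without ΔGm15551 1, Slc16a3 without wild type 7). Beside these stood 9.05%, 6.49%, 5.25%, 1.16% and 1.04% of all genes.

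Of 306 values of log2FC under alternatives, 16 changed sign. For 16 of the 17 genes, Tpi1 being the exception, leaving out at least 1 mouse moved the value by over 1.5 times. Leaving out single mice gave -0.075 to 0.073 for Pkm, -0.025 to 0.12 for Gys1, -0.040 to 0.14 for Ldha and -0.021 to 0.18 for Pfkl. Pkm was at 0.0022 without the filter and 0.011 in the 6 mice without a block, Gys2 at 0.020 in those 6 mice, and Slc2a4 and Pfkm at 0.056 and 0.093 without the higher number series. Of 117 ratio differences 7 changed sign. Leaving out single mice gave -0.066 to 0.15 for Ldha to Ldhb, -0.043 to 0.21 for Pygl to Pygb and -0.0026 to 0.33 for Pfkl to Pfkm. Slc16a1 to Slc16a3 (0.064) and Pfkfb3 to Pfkfb1 (0.11) did so in the 6 mice, and Pfkl to Pfkm (-0.029) without the higher number series. Hk2 to Hk1 stayed between -0.26 and -0.52. The cause of these changes was not tested. Over all genes, 219 had an unadjusted p under 0.05, against 869 of 30984 without the filter, 397 and 552 in the 6 mice with and without the block, 278 without the higher number series, 562 without the muscle-rich libraries, 419 without ΔGm15551 1 and 404 without wild type 7.

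The replicate numbers do not pair the mice: same-numbered mice had correlations of deviations of -0.065, 0.054 and -0.395. With the replicate block in the 6 mice 0 of the listed genes had an unadjusted p under 0.05, the median log2FC was 0.062 and Gys2 was at 0.062. Of the 9 level ratios, 6 were above 1 in 10 of 10 mice over the exon union and 8 over the median transcript or CCDS length.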
